A study of Mus musculus with 7 samples.

Results

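Mitosis and G2/M genes were followed in microglia sorted from inside and outside WT neuronal grafts. They are 52 genes chosen by name for their part in cell division, and all 52 were found among the 55341 gene names of the count table. The samples were CD11b+CD45low microglia, the resident macrophages of the brain, from 5xFAD mice on a C57BL/6 background. These mice express mutant human APP and presenilin 1 from the neuron-specific Thy1 promoter and deposit Aβ, and the mice of the study were female. Cortical cells of WT embryos had been injected into the neocortex, and the tissue was taken 4 weeks later, at an age of 14 weeks by the labels. There were 3 libraries from the dissected grafts and 4 from small pieces of cortex beside them, so that both groups came from 5xFAD hosts carrying a graft, and the outside group is not a cortex without surgery. The libraries are called inside graft 1 to 3 and outside graft 1 to 4 by the numbers of the labels, and values are given in that order.

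The gene products of this group act in the last part of the cell cycle. Cyclins A and B activate the kinase Cdk1 at the end of G2, chromosomes are condensed and attached to the spindle through their kinetochores, and the anaphase-promoting complex then marks cyclins and securin for destruction so that separase can part the sister chromatids. Many of these genes are transcribed only in cycling cells, under the transcription factors B-Myb and FoxM1. Microglia in the healthy adult brain divide rarely, and they divide more near plaques and after injury.

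Counts of 23241114 to 25882122 reads per library were obtained inside the graft and of 18644807 to 24599193 outside it. Levels are counts scaled to a common library size (CPM) after TMM scaling. The microglia label was checked with 8 microglial genes, whose summed level was 42410 to 49140 CPM inside and 48240 to 54160 CPM outside. All 8 had a negative log2 fold change in edgeR, with a median of -0.17 and an unadjusted P below 0.05 for 4 of them. Neither edgeR nor voomWithQualityWeights called any of the 8 after adjustment. Of these 8, P2ry12, Cx3cr1 and Sall1, named after their values were seen, lay below all outside libraries in each inside library (37.5%, against 5.02% of all genes tested), and the DESeq2 Wald test called P2ry12 lower (adjusted P = 0.0433). Csf1r, the receptor that microglia need to survive, averaged 11900 ± 662 CPM inside (SD, n = 3) and 13090 ± 1773 CPM outside (SD, n = 4). Reads of 6 neutrophil genes differed widely between libraries, with summed levels of 6486, 647.8 and 13620 CPM inside and 0.640, 0.311, 290.0 and 18.1 CPM outside. Libraries were taken as replicates from their labels. Nothing states that each came from another mouse, and P values measure the spread between these libraries only.

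Taken over all 52 genes, the level was higher inside the graft in every library. The summed level was 456.2, 416.7 and 527.8 CPM inside and 158.0, 215.3, 140.5 and 180.7 CPM outside the graft. The mean was 466.9 ± 56.3 CPM inside (SD, n = 3) and 173.6 ± 32.3 CPM outside (SD, n = 4), a ratio of 2.69, and the lowest inside library lay above the highest outside library. The genes were a small share of each library, 0.0396% to 0.0539% of the counted reads inside and 0.0143% to 0.0218% outside. In bulk RNA a larger number of dividing cells and more of these transcripts per cell cannot be told apart.

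**Figure D1:**
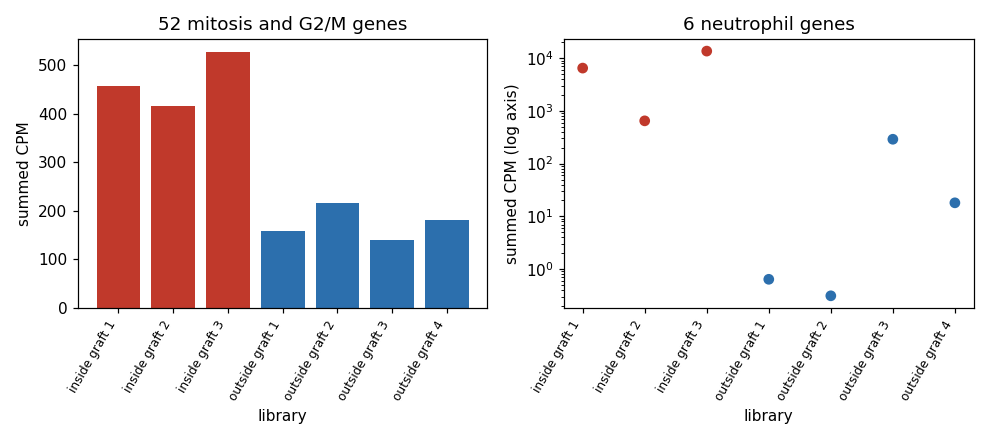
Summed CPM per library of the 52 mitosis and G2/M genes (left, linear axis) and of 6 neutrophil genes (right, log axis), with libraries from inside the graft in red and from outside it in blue. The mitosis and G2/M genes sum to 416.7 to 527.8 CPM inside and 140.5 to 215.3 CPM outside the graft, and the neutrophil genes run from 0.311 CPM in outside graft 2 to 13620 CPM in inside graft 3.

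A large part of the sum outside the graft came from 2 genes that did not follow the rest. Espl1, which encodes separase, the protease that opens cohesin rings, was at 31.6, 33.6 and 36.0 CPM inside and at 47.6, 39.2, 50.3 and 50.3 CPM outside. Ncaph, a non-SMC subunit of condensin I, was at 27.5, 24.9 and 31.1 CPM inside and at 32.3, 39.2, 33.3 and 42.0 CPM outside. Neither gene overlapped between the groups, and both were lower inside. They were 3.85% of the 52, while 5.02% of all genes tested were lower in every inside library. Their log2 fold changes were -0.47 (SE 0.15, adjusted P = 0.291) and -0.40 (SE 0.17, adjusted P = 0.482) in edgeR, and neither passed the test in edgeR or in voomWithQualityWeights. Together they gave 58.5 to 67.1 CPM inside and 78.4 to 92.2 CPM outside. The other 50 genes summed to 397.1, 358.2 and 460.7 CPM inside and to 78.1, 136.9, 56.8 and 88.5 CPM outside, a ratio of 4.5.

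All 52 genes passed the filter on low counts and were tested with the 15257 genes that did so. The filter asks for enough reads in as many libraries as the smaller group holds, so a gene read only inside can pass. A gene that passed only through the inside libraries leans towards a positive value from the start. In edgeR's quasi-likelihood fit 50 had a positive log2 fold change (96.2%, against 49.2% of all genes tested) and 2 a negative one, with a median of 2.19 against -0.0064 for all genes tested. The median stays at 2.19 if Pif1, which had no read outside the graft, is set at its lower bound. Of the 52, 47 had a log2 fold change above 1, as did 7.26% of all genes tested. For 35 genes the lowest inside library exceeded the highest outside one (67.3%, against 5.65% of all genes tested), for 2 the inside libraries were all lower (3.85%, against 5.02%), and for the remaining 15 the groups overlapped. These 15 were Cdc25c, Mybl2, Mxd3, Plk1, Aurka, Pbk, Ndc80, Spc25, Knl1, Kif23, Kifc1, Ncapg, Ncapd2, Nusap1 and Hmmr.

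The tests differed in how many genes they called. With voomWithQualityWeights, which weights each library by its own noise, 10 of the 52 rose inside the graft with an adjusted P under 0.05 (19.2%, against 0.433% of all genes tested). It called 0 of the 52 lower, where 0.059% of all genes tested were. The 10 called higher were Top2a, Pif1, Ube2c, Cenpa, Cdc20, Cdca3, Tpx2, Cit, Prc1 and Birc5. Of these, Pif1, Top2a, Ube2c, Cdc20, Tpx2 and Cit passed the filter on low counts only through the inside libraries. Too few outside libraries had enough reads on them. A lean towards higher inside was thus built into their being tested, and their calls are no independent support. With edgeR 0 of the 52 passed the same threshold, where 0.0983% of all genes did, and the lowest adjusted P was 0.0589, for Pif1. At an unadjusted P below 0.05 edgeR had 35 of the 52 higher (67.3%, against 5.76% of all genes tested) and 2 lower (3.85%, against 3.79%). The DESeq2 Wald test called 19 of the 52 higher at an adjusted P below 0.05 (36.5%, against 2.1%). At the study's threshold of 0.01 voomWithQualityWeights called 0 of the 52, and 0.0197% of all genes tested. The count of 10 depended on single libraries. Leaving out inside graft 1 or 3 gave 2 genes, where 0.333% and 0.296% of all genes tested were called higher. Leaving out inside graft 2 gave 15 (against 1.23% of all genes tested). With outside graft 1 left out 3 genes passed (against 0.227%), and with outside graft 2 left out 8 (against 0.321%). With outside graft 3 or 4 left out the count was 0 (against 0.00673% and 0.00671%). It was also 0 when all libraries had equal weight (against 0.0655%). The weights ran from 0.448 for outside graft 1, the smallest library, to 1.76 for outside graft 4.

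**Figure D2:**
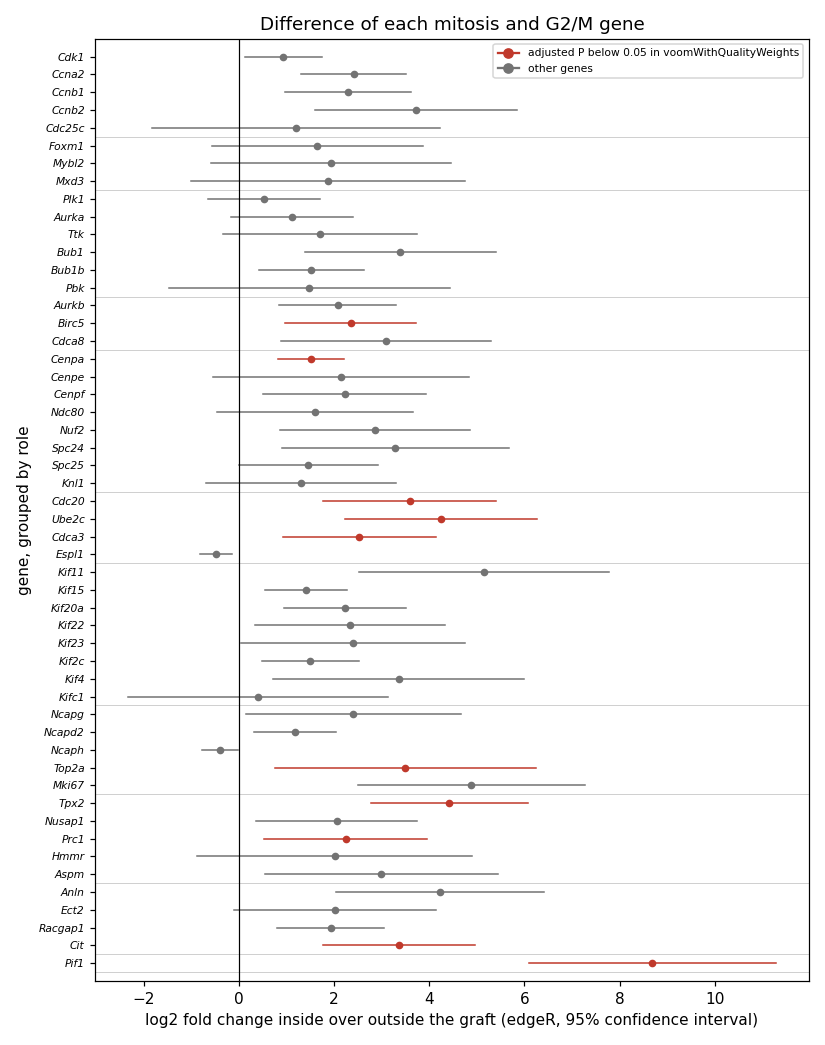
EdgeR log2 fold change between inside and outside libraries for each of the 52 genes (points, positive where higher inside) with its 95% confidence interval (lines), grouped by role, in red for the 10 genes with an adjusted P below 0.05 in voomWithQualityWeights. The point lies above 0 for 50 genes and below it for Espl1 and Ncaph, and the interval lies wholly above 1 for 11 genes, Pif1 included, whose value is set by a group without reads.

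The interval of the edgeR log2 fold change lay wholly above 1 for 11 of the 52 genes (21.2%, against 1.09% of all genes tested). Apart from Pif1 these were Ccna2, Ccnb2, Bub1, Cdc20, Ube2c, Kif11, Mki67, Tpx2, Anln and Cit. Of the 11, only Ccna2 had enough reads outside to pass the filter without the inside libraries. The interval of each of the other 41 reached 1 or below.

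Cdk1, the kinase that drives entry into mitosis, was the most abundant of the cyclin and Cdk1 genes over both groups. It was at 19.4, 16.6 and 17.7 CPM inside and at 10.6, 13.8, 3.82 and 9.36 CPM outside the graft. The groups did not overlap, but the difference was smaller than for most of the 52, with a log2 fold change of 0.93 (SE 0.36, adjusted P = 0.427) in edgeR and an adjusted P of 0.152 in voomWithQualityWeights. The mitotic cyclins had larger differences. Ccnb2, cyclin B2, was at 10.0, 7.28 and 19.3 CPM inside and at 0, 1.33, 0.201 and 2.11 CPM outside, a log2 fold change of 3.72 (SE 0.96, adjusted P = 0.165). Ccna2, cyclin A2, and Ccnb1, cyclin B1, had log2 fold changes of 2.42 and 2.29. All 3 cyclins lay higher in every inside library, as did 5.65% of all genes tested. Their adjusted P lay between 0.0597 and 0.0704 in voomWithQualityWeights. Cdc25c, a phosphatase that activates Cdk1, was read at 0.981, 0.666 and 0 CPM inside and at up to 0.489 CPM outside, and showed no separation at this depth.

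Of the transcription factors that act on mitotic genes, Foxm1 was the most abundant. It was at 10.5, 5.95 and 7.16 CPM inside and at 5.44, 1.25, 0 and 3.36 CPM outside the graft. No outside library reached the lowest inside one, and the log2 fold change was 1.65 (SE 0.99, adjusted P = 0.671). Mybl2, which encodes B-Myb, and Mxd3, a Myc-antagonist relative that is expressed in S phase, were lower, at means of 1.99 and 1.34 CPM inside and 0.513 and 0.358 CPM outside, with overlapping groups. None of these 3 factors passed either test.

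The mitotic kinases were more uneven. Bub1b, which encodes the spindle checkpoint protein BubR1, was at 9.22, 10.1 and 13.1 CPM inside and at 5.71, 1.87, 1.57 and 5.87 CPM outside, a log2 fold change of 1.53 (SE 0.50, adjusted P = 0.301). Bub1, the checkpoint kinase at kinetochores, averaged 2.82 ± 0.62 CPM inside (SD, n = 3) and 0.259 ± 0.235 CPM outside (SD, n = 4), the largest log2 fold change among the 6 kinases, at 3.40. Plk1, polo-like kinase 1, showed the smallest, at 0.53 (SE 0.53, adjusted P = 0.842), with 3.26, 2.62 and 1.69 CPM inside and 2.61, 1.69, 1.01 and 1.70 CPM outside. Aurka, the centrosomal Aurora kinase, had a log2 fold change of 1.12 with overlapping groups. Ttk, the checkpoint kinase Mps1, was higher in every inside library, with a log2 fold change of 1.70. Pbk, a MAPKK-like kinase of mitosis, varied within both groups, from 0.927 to 11.2 CPM inside and from 0 to 7.96 CPM outside.

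Among the genes of chromosome structure, Top2a and Mki67 showed the clearest contrast between libraries. Top2a (chr11:98992943-99024189, minus strand, GRCm38) encodes topoisomerase II alpha, which untangles sister chromatids. It was at 30.5, 25.8 and 27.3 CPM inside and at 0.107, 9.52, 0.0402 and 0.202 CPM outside the graft. The inside libraries were alike, and outside graft 2 stood apart from the other outside libraries. Top2a rose inside the graft in voomWithQualityWeights (adjusted P = 0.0316), while the edgeR log2 fold change of 3.50 had an SE of 1.23 (adjusted P = 0.356).

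Mki67 (chr7:135689784-135716361, minus strand, GRCm38) encodes Ki-67, which coats mitotic chromosomes and is the common marker of cycling cells. It was at 33.0, 15.7 and 40.4 CPM inside and at 0.107, 3.60, 0.282 and 0 CPM outside the graft. All inside libraries were above all outside libraries, and outside graft 2 was again the highest outside. The log2 fold change was 4.89 in edgeR (SE 1.07, adjusted P = 0.109) and the adjusted P was 0.0552 in voomWithQualityWeights, so Mki67 missed the threshold in both. Of the condensin I genes, Ncapd2 was at 14.0, 24.1 and 23.6 CPM inside and at 15.6, 4.54, 9.01 and 7.09 CPM outside, with overlap through outside graft 1. Ncapg ranged from 1.34 to 10.99 CPM inside and from 0 to 1.54 CPM outside. The 3 condensin I subunits thus did not move alike, with log2 fold changes of 2.41 for Ncapg, 1.19 for Ncapd2 and -0.40 for Ncaph.

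The chromosomal passenger complex corrects faulty attachments between chromosomes and spindle. Its 3 genes on the list were each higher in every inside library, as were 5.65% of all genes tested. Birc5, which encodes survivin, was at 8.95, 8.92 and 16.9 CPM inside and at 2.24, 4.89, 0.563 and 1.38 CPM outside, and it rose in voomWithQualityWeights (adjusted P = 0.0482). Cdca8, borealin, averaged 8.36 ± 2.40 CPM inside (SD, n = 3) and 0.961 ± 1.32 CPM outside (SD, n = 4), and Aurkb, the kinase of the complex, 5.70 ± 1.18 and 1.34 ± 0.80 CPM. Neither passed the test, with adjusted P of 0.0771 and 0.0752 in voomWithQualityWeights.

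Of 8 centromere and kinetochore genes, Cenpa rose inside the graft. It encodes the histone H3 variant that marks centromeres and was at 16.7, 16.3 and 14.9 CPM inside and at 4.48, 8.32, 3.62 and 5.99 CPM outside. The spread was small in both groups, and the difference was modest in size, with a log2 fold change of 1.51 in edgeR (SE 0.31, adjusted P = 0.0933) and an adjusted P of 0.0398 in voomWithQualityWeights. Cenpe, a kinetochore motor, was at 8.48, 9.10 and 11.6 CPM inside and at 0.0534, 7.78, 0.0402 and 0.851 CPM outside, so that outside graft 2 came close to the inside libraries. Cenpf, Nuf2 and Spc24, further kinetochore proteins, were also above the outside range in each inside library, with log2 fold changes of 2.22, 2.87 and 3.29. Ndc80 and Spc25, like Nuf2 and Spc24 subunits of the NDC80 complex that binds microtubules, overlapped between groups, as did the scaffold gene Knl1. The 4 subunits of the NDC80 complex had log2 fold changes of 1.46 to 3.29 and 0 of them passed either test.

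All 8 kinesin genes had a positive log2 fold change in edgeR, as did 49.2% of all genes tested, and none passed either test. Kif15, a spindle motor that shares work with Kif11, was the most abundant, at 13.3, 10.0 and 7.96 CPM inside and at 2.51, 2.71, 4.63 and 5.75 CPM outside. Its log2 fold change was 1.42 (SE 0.39, adjusted P = 0.191). Kif11, the motor Eg5 that pushes spindle poles apart, was at 3.85, 1.47 and 7.58 CPM inside and at 0, 0.0445, 0 and 0.405 CPM outside, almost without reads outside the graft. Kif4 was at 6.40, 3.91 and 3.88 CPM inside and at 0.961, 0.890, 0 and 0 CPM outside, and had an adjusted P of 0.0546 in voomWithQualityWeights. Kif20a and Kif22 were higher in every inside library, as was Kif2c, a microtubule-depolymerising motor, with log2 fold changes of 1.51 to 2.34. Kif23, the motor of centralspindlin, overlapped through outside graft 2, which was at 3.25 CPM. Kifc1, a minus-end motor, was at 0.314, 2.75 and 0 CPM inside and at 0.267, 1.20, 1.01 and 0.608 CPM outside, and its direction differed between the tests, with a log2 fold change of 0.40 in edgeR and -1.44 in voomWithQualityWeights.

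**Figure D3:**
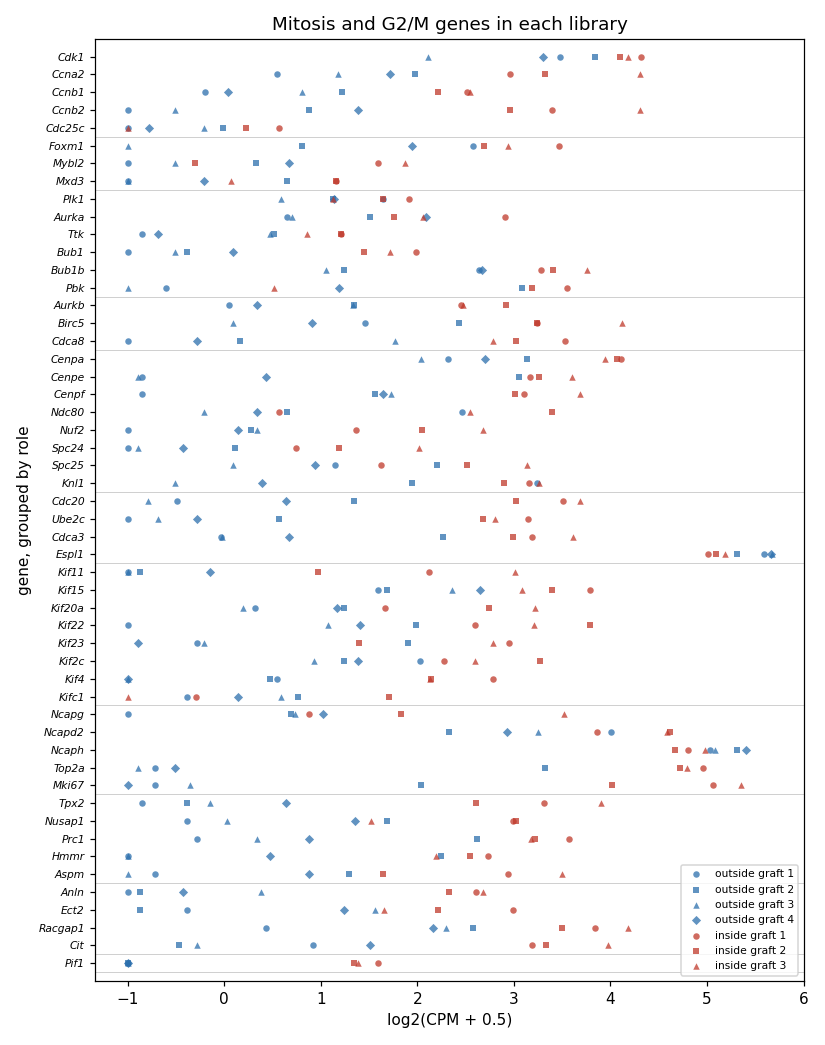
Level of each of the 52 genes in each of the 7 libraries as log2(CPM + 0.5), grouped by role, with inside libraries in red and outside libraries in blue and a marker shape for each library number. The inside points lie to the right of all outside points for 35 genes and to the left for Espl1 and Ncaph, and the blue squares of outside graft 2 are the rightmost outside points for 27 genes.

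Of the spindle proteins, Tpx2 and Prc1 rose inside the graft. Tpx2, which nucleates microtubules and activates Aurora A, was at 9.46, 5.59 and 14.4 CPM inside and at 0.0534, 0.267, 0.402 and 1.05 CPM outside. The gap between the groups was wide, with an edgeR log2 fold change of 4.43 (SE 0.74, adjusted P = 0.0653) and an adjusted P of 0.0411 in voomWithQualityWeights. Prc1, which bundles microtubules of the central spindle, was at 11.4, 8.83 and 8.55 CPM inside and at 0.320, 5.65, 0.764 and 1.34 CPM outside (adjusted P = 0.0456 in voomWithQualityWeights). Aspm, a spindle pole protein, was higher in every inside library without passing the test. Nusap1 and Hmmr overlapped between the groups, Hmmr through outside graft 2 with 4.22 CPM against 0, 0 and 0.891 CPM in the other outside libraries.

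The genes of anaphase promotion held 3 of the 10 that rose, and separase beside them. Of all genes tested, voomWithQualityWeights called 0.433% higher. Ube2c, the E2 enzyme of the anaphase-promoting complex, was at 8.32, 5.90 and 6.49 CPM inside and at 0, 0.979, 0.121 and 0.324 CPM outside (log2 fold change 4.25 in edgeR, SE 0.91; adjusted P = 0.0374 in voomWithQualityWeights). Cdc20, the activator of that complex, was at 10.9, 7.63 and 12.3 CPM inside and at 0.213, 2.05, 0.0805 and 1.05 CPM outside (adjusted P = 0.0411). Cdca3, a trigger of mitotic entry that is itself degraded through the complex, was at 8.60, 7.46 and 11.7 CPM inside and at 0.480, 4.31, 0.483 and 1.09 CPM outside (adjusted P = 0.0411). In all 3 genes every inside library was above the outside ones, as in 5.65% of all genes tested, and outside graft 2 was the highest outside. Espl1, the target of this pathway in the sense that its inhibitor securin is degraded, was lower in every inside library, as were 5.02% of all genes tested. It passed neither test.

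All 4 cytokinesis genes were higher in every inside library, as were 5.65% of all genes tested. Racgap1, the GTPase-activating subunit of centralspindlin, was the most abundant, at 13.8, 10.8 and 17.7 CPM inside and at 0.854, 5.47, 4.43 and 3.97 CPM outside (log2 fold change 1.93 in edgeR, SE 0.50; adjusted P = 0.0564 in voomWithQualityWeights). Cit, citron kinase of the midbody, was at 8.64, 9.59 and 15.2 CPM inside and at 1.39, 0.222, 0.322 and 2.35 CPM outside, and it rose in voomWithQualityWeights (adjusted P = 0.0411). Anln, the actin-binding anillin, averaged 5.35 ± 0.72 CPM inside (SD, n = 3) and 0.273 ± 0.370 CPM outside (SD, n = 4), with an adjusted P of 0.0513. Ect2, the exchange factor that activates RhoA at the cleavage furrow, ranged from 2.65 to 7.46 CPM inside and from 0.0445 to 2.45 CPM outside.

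Pif1 (chr9:65587160-65595967, plus strand, GRCm38), a DNA helicase of telomeres and mitochondria, had the lowest adjusted P of the 52 in both tests. It was at 2.51, 2.04 and 2.11 CPM inside, from 64, 46 and 50 reads, and no read was counted in the 4 outside libraries. With 3 reads over the outside group as the limit that a count of 0 allows, Pif1 was at least 67.2-fold higher inside the graft. The adjusted P was 0.0195 in voomWithQualityWeights and 0.0589 in edgeR. With no read outside, Pif1 passed the filter on low counts only through the inside libraries. Its direction was thus set once it passed, and its counts are given as a description. Other genes that passed only through the inside libraries are named above. Its exons overlap no other gene of the annotation.

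The group was read at different completeness in the libraries. All 52 genes had a read in inside graft 1 and inside graft 2 and 50 in inside graft 3, while 15, 1, 8 and 3 of the 52 were at 0 in outside graft 1 to 4. The median gene had 187.5, 158 and 184.5 reads inside and 5, 43, 14 and 30 reads outside. Thus outside graft 1 had the fewest reads on these genes, and outside graft 2 the most among the outside libraries. Outside graft 1 had the lowest total, but with 21407 it had the most genes with a read of all libraries. After scaling, the median gene was at 0.267 CPM there, against 1.91, 0.563 and 1.22 CPM in outside graft 2 to 4. The reason was not tested. Outside graft 2 was the highest of its group for 27 of the 52 genes. For 20 genes at least 1 outside library was at 0, and the outside mean was under 1 CPM for 22, which makes their fold changes imprecise. Inside the graft 51 genes averaged at least 1 CPM, and for 38 of the 52 the inside libraries lay within 3-fold of each other.

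The order of the genes by level was more alike among the inside libraries than among the outside ones. Over the 50 genes without Espl1 and Ncaph, Spearman's rho between pairs of inside libraries was 0.684 to 0.736, between pairs of outside libraries 0.221 to 0.558, and between an inside and an outside library 0.180 to 0.653. These correlations are across genes, which are not independent replicates, and the outside values rest on fewer reads. Per kilobase of exon, Ccnb2 had the highest mean level inside the graft, at 7.97 CPM per kilobase, followed by Ncaph at 6.47 and Cdc20 at 5.51. Outside the graft Ncaph led with 8.52 CPM per kilobase, followed by Espl1 with 5.35 and Cdk1 with 1.90, and Mki67 stood at 0.0992 against 2.95 inside.

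Other cell-cycle genes were measured with lists that share no gene with the 52. Of 65 further mitotic genes 61 were tested, 52 with a positive log2 fold change (85.2%, against 49.2% of all genes tested), and the median was 0.80. In 22 of them the inside libraries all exceeded the outside ones (36.1%, against 5.65% of all genes tested). In voomWithQualityWeights 0 passed at 0.05, where 0.433% of all genes tested were called higher. The 5 with the lowest P in that test were Sgo1, the protector of centromeric cohesion, Cep55, a midbody protein, Cenpn, a centromere protein, Melk, a mitotic kinase, and Wee1, the kinase that inhibits Cdk1. Sgo1 was at 1.81, 2.13 and 1.94 CPM inside and at 0.213, 0.0445, 0.282 and 0.162 CPM outside (log2 fold change 3.44 in edgeR, SE 0.74; adjusted P = 0.084 in voomWithQualityWeights). Sgo1 and Cep55 passed the filter on low counts only through the inside libraries.

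Of the 30 DNA replication genes 26 had a positive log2 fold change (86.7%, against 49.2% of all genes tested), and the median was 0.72. In 10 the inside libraries all exceeded the outside ones (33.3%, against 5.65%). By voomWithQualityWeights 0 were called, where 0.433% of all genes tested were called higher. Rrm2, a subunit of ribonucleotide reductase, was at 15.9, 7.41 and 31.3 CPM inside and at 0.107, 1.78, 0 and 0.729 CPM outside (log2 fold change 4.78 in edgeR, SE 0.99; adjusted P = 0.101 in voomWithQualityWeights). Rrm2 too passed the filter only through the inside libraries. Chaf1a, Uhrf1 and Cdc45, which act in chromatin assembly, maintenance of DNA methylation and origin firing, had log2 fold changes of 1.54, 2.19 and 1.61.

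Among 24 genes of cell-cycle entry and arrest the median log2 fold change was 0.20 and 16 were positive (66.7%, against 49.2% of all genes tested). The list holds activators and inhibitors of the cycle, and 1 of its genes was called higher (4.17%, against 0.433% of all genes tested). E2f7, a repressing member of the E2F family that is itself made in S phase, was at 1.73, 1.38 and 3.88 CPM inside and at 0.160, 0.0445, 0 and 0 CPM outside (adjusted P = 0.0453 in voomWithQualityWeights). It had 3, 1, 0 and 0 reads outside and passed the filter on low counts only through the inside libraries. Its direction was thus set once it passed, and its values are given as a description. E2f8, a relative of E2f7, E2f1, an activator, and Ccne1, cyclin E1, had log2 fold changes of 3.07, 2.22 and 3.28. E2f8 and Ccne1 also passed the filter only through the inside libraries. E2f3 was lower inside, at 37.6, 26.5 and 32.2 CPM against 47.5, 39.7, 40.3 and 44.2 CPM outside (log2 fold change -0.42, adjusted P = 0.437 in edgeR).

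**Figure D4:**
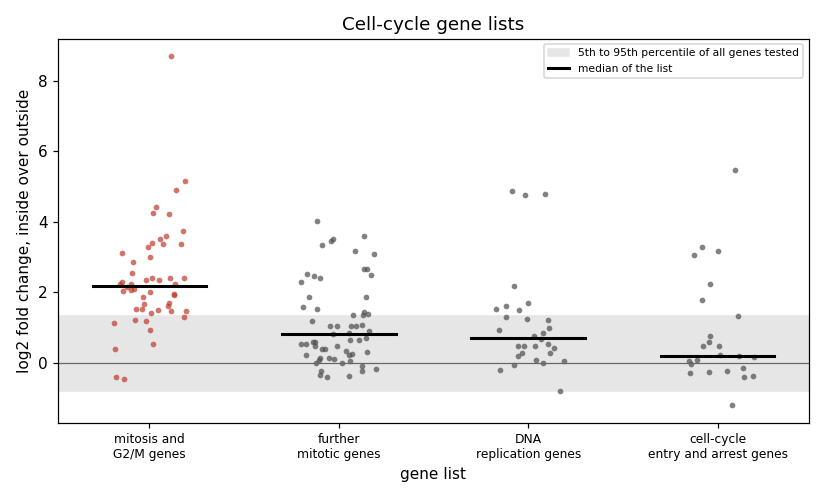
EdgeR log2 fold change between inside and outside libraries for the 52 mitosis and G2/M genes (red) and the tested genes of 3 further cell-cycle lists (grey), with the median of each list as a black bar and the 5th to 95th percentile of all 15257 genes as a grey band, from -0.80 to 1.33. The medians are 2.19, 0.80, 0.72 and 0.20 from left to right.

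Genes of other cell types were measured beside these levels, and their part in the difference was not tested. Neutrophil genes were higher in every inside library for 5 of 6 genes (83.3%, against 5.65% of all genes tested). The most abundant of them, S100a8 and Ngp, were at 208 and 182 CPM in inside graft 2. In inside graft 3 they were at 4077 and 3930 CPM. Inside the graft the libraries stood in the same order by both sums, over a much wider range for neutrophil genes. Inside graft 2 had 647.8 CPM of neutrophil genes and 416.7 CPM of division genes, inside graft 1 had 6486 and 456.2 CPM, and inside graft 3 had 13620 and 527.8 CPM. Outside the graft the ends of the order were reversed. Outside graft 3 had the most neutrophil reads of the outside libraries, 290.0 CPM, and the lowest sum of division genes, 140.5 CPM. Outside graft 2 had the fewest, 0.311 CPM, and the highest sum, 215.3 CPM. Without inside graft 1 and inside graft 3, the libraries with the most neutrophil reads, the median log2 fold change of the 52 genes was 2.05, the ratio of sums 2.41, and 46 genes were above all outside libraries (against 21.9% of all genes tested then). Only 1 inside library remains in this fit and is assumed to vary like the others, so that count cannot be set beside the 35 of the full comparison. Under this setting voomWithQualityWeights called 4 of the 52, Top2a, Pif1, Mki67 and Ndc80, and 0.81% of all genes tested.

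The other markers were as follows. The 7 monocyte genes summed to 675.8, 78.6 and 1397 CPM inside and to 9.39 to 29.3 CPM outside, led by Chil3 and Ccr2. Chil3 made up most of the inside sums, at 586.9, 67.6 and 1189 CPM, in the same order as the neutrophil sums of 6486, 647.8 and 13620 CPM. Whether these Chil3 reads came from monocytes or from neutrophils was not tested. Ccr2 overlapped between the groups, at 31.8, 4.26 and 73.0 CPM inside and at 4.06 to 18.1 CPM outside. Of the 7, 2 were higher in every inside library (28.6%, against 5.65% of all genes tested), and 1 had a negative log2 fold change. The 7 genes of border-associated macrophages, among them Mrc1 and Ms4a7, summed to 100.1, 15.7 and 96.9 CPM inside and to 5.96 to 15.0 CPM outside. Inside graft 2 was the lowest of the inside libraries for monocyte, macrophage and neutrophil genes.

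Genes of neural progenitors and new neurons, which the grafted tissue can hold, summed to 8.99, 10.96 and 16.7 CPM inside and to 6.30, 12.7, 2.21 and 2.96 CPM outside. Most of these reads were on Nes, apart from outside graft 1, where Nes had 59 of 118. Nes encodes nestin, which endothelial cells and activated glia can express too, and was at 8.95, 10.4 and 16.7 CPM inside and at 3.15, 12.3, 2.21 and 2.27 CPM outside. Sox2, a transcription factor of progenitors, was at 0 to 0.0444 CPM inside and 0 to 1.12 CPM outside. Outside graft 2 was the highest outside library for both Nes and the division genes. T and NK cell genes summed to 1.64 to 11.96 CPM inside and 0.160 to 0.764 CPM outside, with Nkg7 at 0 in all outside libraries. B cell genes, nearly all Cd79b, were at 28.1 to 39.4 CPM in the 7 libraries. Genes of oligodendrocyte precursors, vessel cells, astrocytes and neurons reached at most 9.14, 40.1, 4.26 and 6.07 CPM inside and 7.61, 61.3, 6.99 and 10.8 CPM outside, and 0 of their genes were called in either test.

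Outside this group, the genes whose level followed that of the 52 most closely over the 7 libraries were Lyz2, Rrm2, Gm48624, Nsmce2, Helb, Gm22304, Gm42600, Mfsd12, Prr5l and Cpd, with Pearson's r of 0.964 to 0.991 between log2 levels. Because the libraries fall into 2 groups, such a likeness mostly restates the difference between them. Lyz2, which encodes the lysozyme of macrophages and neutrophils, was at 2420, 2439 and 3511 CPM inside and at 599.9, 734.3, 350.7 and 593.1 CPM outside. Helb, a DNA helicase, was at 16.2, 14.5 and 17.0 CPM inside and at 9.18, 11.8, 9.01 and 11.5 CPM outside. Of the 10, Gm48624, Gm22304 and Gm42600, had under 1 CPM on average in either group.

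The 52 genes lie on 17 chromosomes, with at most 10 on any 1 of them, and 36 share no exon base with another gene of the GENCODE M21 annotation. In 7, over 10% of exon bases are shared with a gene on the other strand, and reads there cannot be told apart, since strand was not used. These are Ccna2, Cdc25c, Ube2c, Kif20a, Kif4, Ncapg and Prc1, with 29.3% for Kif20a (Cdc23) and 22.8% for Ube2c (Tnnc2). Espl1 and Ncaph share none.

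Promoters were read because the 52 genes include many that are known to be regulated together through CCAAT boxes and cell-cycle homology regions (CHR). RefSeq promoters on GRCm38.p6 were found for 43 of the 52 genes, and not for Ccna2, Pbk, Foxm1, Spc24, Tpx2, Aurkb, Cdc25c, Pif1 and Kif20a. In the 250 bases before the start, on either strand, CCAAT was found in 31 of 43 (72.1%), against 34.5% of 27025 promoters, and 2 or more copies in 51.2% against 10.5%. TTTGAA, the usual letters of a CHR, was found in 32.6% against 16.3%, and TTCGAA in 4.65% against 1.34%. CCAAT together with either of these CHR motifs was found in 30.2% against 6.21%. The E2F letters TTTGGCGC, TTTCGCGC or TTTCCCGC were found in 6.98% against 1.59%. Of the genes that rose, Top2a, Ube2c and Cdc20 hold CCAAT with a CHR motif, and Cenpa, Cdca3 and Prc1 hold CCAAT alone. Birc5 and Cit hold none of the letters searched. Espl1, which was lower inside, holds CCAAT and TTTGAA. A match in these letters is a description of the sequence and does not show binding, and a link to the difference between the groups was not tested.

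The promoters of Top2a, Ube2c and Cdc20 are shown because these 3 genes rose inside the graft and hold CCAAT boxes with a CHR motif. They are given on the strand of the gene from RefSeq on GRCm38.p6, and stop at the start of the gene in GENCODE M21, so that 31 bases of the window of Ube2c and 9 of that of Cdc20 are left out. The CHR motif of Ube2c lies in the bases left out and is not in the stretch shown. Capitals mark CCAAT, which is seen as ATTGG where it lies on the other strand, then TTTGAA, which is seen as TTCAAA there, and lastly TTCGAA, which reads the same on both strands. In Ube2c the box occurs on both strands in an overlapping run at 1 place.
Top2a, chr11:99024190-99024439, minus strand: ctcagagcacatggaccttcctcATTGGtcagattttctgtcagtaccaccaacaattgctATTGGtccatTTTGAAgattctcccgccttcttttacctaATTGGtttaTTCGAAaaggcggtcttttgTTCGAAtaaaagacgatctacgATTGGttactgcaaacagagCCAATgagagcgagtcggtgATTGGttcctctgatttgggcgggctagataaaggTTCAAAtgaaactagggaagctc
Ube2c, chr2:164769679-164769897, plus strand: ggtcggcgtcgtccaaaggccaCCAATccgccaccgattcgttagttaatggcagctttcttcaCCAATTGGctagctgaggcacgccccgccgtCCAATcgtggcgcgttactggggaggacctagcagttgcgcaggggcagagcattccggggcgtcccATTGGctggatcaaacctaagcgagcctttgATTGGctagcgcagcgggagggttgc
Cdc20, chr4:118437353-118437593, minus strand: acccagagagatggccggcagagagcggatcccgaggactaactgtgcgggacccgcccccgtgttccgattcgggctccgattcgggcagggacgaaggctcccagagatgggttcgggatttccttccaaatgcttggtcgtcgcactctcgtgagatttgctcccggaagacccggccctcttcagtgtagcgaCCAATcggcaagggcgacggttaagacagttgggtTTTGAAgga
The window of Top2a holds 6 CCAAT copies, 5 of them on the other strand, with 2 copies of each CHR motif. Ube2c also has 6 CCAAT copies and Cdc20 has 2, of which 1 is in the stretch shown. The levels of these genes inside the graft, 27.9, 6.90 and 10.3 CPM on average, were not ordered by the number of copies.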

How the data were processed

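RNA of sorted microglia was amplified with the SMARTer Ultra Low Input kit and sequenced as single reads. The authors processed the reads with bcl2fastq 2.18, STAR 2.7.2a and featureCounts 1.6.2 on GRCm38.p6 with GENCODE M21, by the submitters' processing notes and the file header, and deposited raw read counts per gene name, without normalization. Reads aligning to several places were left out and strand was ignored, so overlapping genes on opposite strands cannot be separated. Groups and replicate numbers came from the labels.

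From the counts, CPM, fold changes and tests were computed in R 4.3.3 with edgeR 4.0.16 (filterByExpr by group, TMM, glmQLFit and glmQLFTest, robust=FALSE), limma 3.58.1 (voomWithQualityWeights, the test of the study's methods) and DESeq2 1.42.0 (an alternative). P values were adjusted by Benjamini-Hochberg over all 15257 genes that passed the filter, with a threshold of 0.05. Amplified reads are not independent molecules, and limits for a count of 0 cover counting error only.

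The 52 genes and all lists were chosen with earlier results of these data known. Values in every library are given for Mki67, Top2a, Cdk1, the most abundant gene of each role and every gene past the threshold, and, chosen after their values were seen, for further members. Of each further cell-cycle list at most the 5 genes with the smallest voomWithQualityWeights P are named, then the 10 genes most like the summed level, and the 2 most abundant of each cell type list. Some genes that this rule names are not reported here. Alternatives were other normalizations, filters, tests, weights and thresholds, a replicate block, and the omission of single libraries. Chosen only once the data had been seen were the sum without the lower genes, the fit without the libraries richest in neutrophil reads, and libraries thinned to the smallest total. The scripts were tested on simulated data.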

Additional observations from a re-analysis of the deposited data

Results flagged for a closer look

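In the 4 outside libraries 66 values, 51 of them of single mitosis and G2/M genes, were tested for a library whose gap to the nearest of the others takes up a larger share of the whole range than Dixon's 95% critical value allows. In 9 of them a library stood apart, where chance would give about 3.3 if the values were normally distributed. Low counts, some of them 0, need not be, so the 3.3 is only a guide. Of the 9, 8 are mitosis and G2/M genes, which also made up most of the values tested. In 5 of these the library is outside graft 2, which was the highest. Top2a was at 9.52 CPM there and at 0.0402 to 0.202 CPM in the other outside libraries. Cenpe was at 7.78 CPM, against 0.0402 to 0.85 CPM, and Cdca3 at 4.31 CPM, against 0.48 to 1.09 CPM. Mki67 was at 3.6 CPM, against 0 to 0.282 CPM, and Kif23 at 3.25 CPM, against 0.0405 to 0.362 CPM. These genes share a library and are not independent of each other.

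In outside graft 1, which had the lowest total, Ndc80 stood apart with 5.02 CPM, against 0.362 to 1.07 CPM in the others, and Cenpf with 0.0534 CPM, against 2.45 to 2.82 CPM. Kif11 was at 0.405 CPM in outside graft 4 and at 0 to 0.0445 CPM in the others. The 6 neutrophil genes summed to 290.0 CPM in outside graft 3, against 0.311 to 18.1 CPM.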

How the results depend on the processing

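With other scalings (DESeq2 size factors, upper-quartile factors, library size alone) voomWithQualityWeights called 9 to 11 of the 52 genes and edgeR 0, the median log2 fold change was 2.16 to 2.21 and the ratio of sums 2.63 to 2.72. Of all genes tested, voomWithQualityWeights then called 0.433% to 0.439% higher. Without a filter on low counts edgeR called 16 and voomWithQualityWeights 18 (against 0.491% of all genes tested), and 2 of the further mitotic genes passed. With at least 1 CPM in 3 libraries edgeR called 2. The share of all genes that edgeR called under these filters is not given here. The DESeq2 Wald test called 19 in place of edgeR's 0 (against 2.1% of all genes tested). With voom without quality weights, or at an adjusted P under 0.01, voomWithQualityWeights called 0 (against 0.0655% and 0.0197%). Its own log2 fold changes gave a median of 2.518. With the sum taken over the 50 other genes the ratio was 4.5, and without both libraries richest in neutrophil reads voomWithQualityWeights called 4. Thinned libraries gave 8 (against 0.432% of all genes tested). With each library left out, edgeR called 0 to 2 genes (2 without outside graft 2) and voomWithQualityWeights 0 to 15. Of all genes tested, voomWithQualityWeights then called 0.00671% to 1.23% higher. The median was 1.969 (without outside graft 1) to 2.758 (without outside graft 2) and the ratio 2.51 to 2.92. In these fits 35 to 41 genes had no overlap and a higher level inside. With fewer libraries to separate, that range cannot be set beside the 35 of the full comparison. With the replicate block, which drops outside graft 4, edgeR called 1 and voomWithQualityWeights 5 genes, with a median of 2.977. Of all genes tested, voomWithQualityWeights then called 237 higher (1.59%). Without the block in the same libraries voomWithQualityWeights called 0 of the 52 and 1 of all genes tested. Deviations of libraries with the same number had correlations of -0.033, 0.075 and 0.062. With so few libraries these values cannot settle whether the libraries were paired. The labels do not say whether libraries of 1 number came from the same mouse. The voomWithQualityWeights log2 fold change of Kifc1, -1.44 with all libraries, was 0.4062 under the block and ran from -3.198 to 0.176 with each library left out, while that of Cdc25c ran from -0.7557 to 2.068. DESeq2's own value for Kifc1 was 0.4176, on the side of edgeR. Of all the values recomputed for single genes, 634 kept their direction and side of the threshold, 31 passed it newly, 56 no longer did and 5 changed direction. Most of these values belong to genes that were not called at first, and the 56 come from the 10 that were. Each of the 10 was still called in 1 to 5 of the 7 fits that left out a library. The cause of these shifts was not tested. Outside means were under 1 CPM for 22 of the 52 genes, whose fold changes are imprecise.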
